A study of Sus scrofa with 3 samples.

Results

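Skatole is formed from tryptophan by bacteria of the hindgut, reaches the liver with portal blood and is known as a cause of boar taint in the meat of intact male pigs. Cytochromes P450 of the CYP2E1, CYP2A and CYP1A families add oxygen to the ring (phase I), and cytosolic sulfotransferases (SULTs) then move a sulphate group from the donor PAPS to the hydroxyl group so that the product can be excreted (phase II). The same enzymes handle phenols, steroids and many drugs, and several of them are known to differ between intact and castrated male pigs. The mRNAs of 7 such enzymes are described here, namely the P450s CYP2E1, CYP2A19 and CYP1A2 and the sulfotransferases SULT1A1, SULT1C2, SULT1C4 and SULT2A1.

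The 7 genes were chosen by name from the 22945 mRNA features of the deposited tables, for their role in clearing skatole and phenols and with their values in these libraries already known. Their levels and ratios are therefore a description, and no test was made of them. Liver RNA came from male Chinese Wuzhishan miniature pigs. The labels give an age of 6 to 7 months, which by the study's methods was the age on arrival, so the livers came from older animals. All had been fed HFC, a diet rich in fat and cholesterol that contained lard, egg yolk powder, cholesterol and sodium cholate, so that no animal on a plain diet enters any comparison. IM pigs were intact males with a sham operation, CM pigs were castrated males, and CMT pigs were castrated males given weekly intramuscular testosterone propionate. RNA of 3 pigs per group, according to the sample labels, was mixed in equal amounts and sequenced as 1 library per group. The study's methods name more pigs in each group than the labels and do not say how many entered a pool. No value below has a replicate check, the spread between pigs is unknown, and every statement concerns 3 pools. Where 3 levels follow each other without a group name, they are those of IM, CM and CMT in that order.

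Levels are FPKM, the authors' read number per kilobase of transcript after scaling by a divisor for each library, which is meant to allow comparison between genes and between libraries. Ratios between libraries depend on that scale, as shown further below. At a transcript length of 1 kb, a level of 1 FPKM came from 2.51 reads in the IM pool, 3.42 in the CM pool and 2.04 in the CMT pool. The reads recovered from the steps in the values summed to 32197629, 36126750 and 25419901, and an interval given with a ratio is the 95% exact binomial interval on the recovered reads of both libraries, which covers counting error only. Features were compared where the level reached 1 FPKM in all 3 libraries, which held for 15613 mRNA features and for all 7 of the enzymes, and a ratio of at least 1.5-fold was counted as a difference. All 8 hepatocyte markers were present at high level, with albumin (ALB) at 690375 FPKM in IM, against 476360 in CM and 445509 in CMT, so the RNA carried the mark of liver. The red blood cell genes HBB, HBM and ALAS2 were all lower in CM and CMT, and the summed FPKM of the 4 listed red cell markers was 17295, 3424 and 5195. Summed lymphocyte markers were 340 FPKM in the IM pool, 459 in the CM pool and 265 in the CMT pool, and 4 of 6 were at least 1.5-fold lower in CMT than in CM. The part of these cells in the results was not tested. In bulk RNA, fewer cells of a type and less RNA per cell cannot be told apart.

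CYP2E1, which oxidises skatole, ethanol and acetone, was at 3148 FPKM in IM, against 14546 in CM and 54.4 in CMT. The recovered reads behind these levels were 7404, 46612 and 104. CM was the high library and CMT the low one, with IM between them. The level in CM was 4.62-fold that in IM (interval 4.51 to 4.74), CMT was 267-fold lower than CM (221 to 327), and CMT was 57.9-fold lower than IM (47.7 to 70.9). Among the 15613 features, the CMT to IM ratio of CYP2E1 was the lowest of all, and its CMT to CM ratio had rank 2 from the lowest. By level, CYP2E1 held rank 360 of all mRNA features in the IM pool, 65 in the CM pool and 7383 in the CMT pool.

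CYP1A2, known for the oxidation of caffeine, aromatic amines and indoles, shared the low level in CMT but differed much less between IM and CM. It was at 3502 FPKM in IM, against 5294 in CM and 101 in CMT, from 8666, 17851 and 203 reads. The CM to IM ratio of 1.51 lay at the 1.5-fold line, and its interval of 1.47 to 1.55 spanned the line. CMT was 52.5-fold lower than CM (45.7 to 60.5) and 34.7-fold lower than IM (30.2 to 40.1), with rank 8 and rank 3 from the lowest ratio.

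CYP2A19, the pig counterpart of human CYP2A6 and the enzyme that carries skatole towards its hydroxylated forms alongside CYP2E1, took another course. Its level was 1046 FPKM in the IM pool, 7399 in the CM pool and 2313 in the CMT pool, from 5573, 53699 and 10013 reads. Here IM was the lowest library. CM was 7.07-fold above IM (6.88 to 7.27), CMT was 3.20-fold lower than CM (3.13 to 3.27), and CMT stayed 2.21-fold above IM (2.14 to 2.28).

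The makeup of the P450 mRNA differed between the pools. Summed over CYP2E1, CYP2A19 and CYP1A2, the level was 7696 FPKM in IM, against 27239 in CM and 2468 in CMT. CYP1A2 made up 45.5% of that sum in IM, CYP2E1 made up 53.4% in CM, and CYP2A19 made up 93.7% in CMT. CYP2E1 and CYP1A2 together were most of the sum in IM, at 40.9% and 45.5%, and little of it in CMT, at 2.20% and 4.09%.

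**Figure D1:**
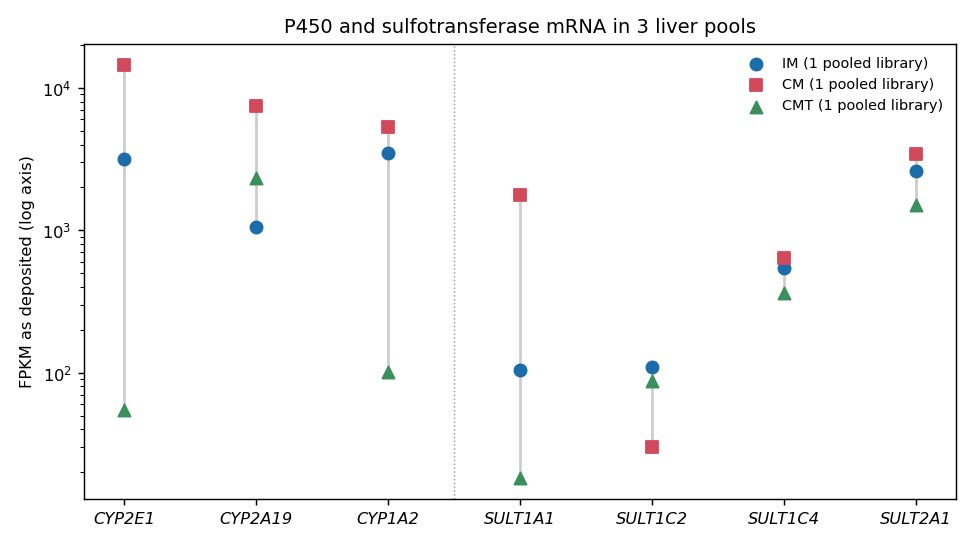
FPKM of the 3 P450s (left of the dotted line) and the 4 sulfotransferases (right) on a log axis, with 1 point for each pooled library and a grey line from the lowest to the highest. The CM square is the top point for every gene but SULT1C2, where it is the bottom one at 30.1 FPKM, and the CMT triangles of CYP2E1, CYP1A2 and SULT1A1 lie far below both other libraries.

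SULT1A1, the main phenol sulfotransferase of liver, had the highest CM to IM ratio of the 7 genes. Its level was 104 FPKM in the IM pool, 1770 in the CM pool and 18.1 in the CMT pool, from 240, 5562 and 34 reads. CM was 17.0-fold above IM (14.9 to 19.4), rank 6 from the highest of all features compared. CMT was 97.6-fold lower than CM (69.7 to 141), rank 4 from the lowest, and 5.74-fold lower than IM (3.99 to 8.48).

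SULT1C2, a sulfotransferase of small phenols and other xenobiotics, was the only one of the 7 with its lowest level in CM. It was at 109 FPKM in IM, against 30.1 in CM and 87.3 in CMT, from 358, 134 and 232 reads. CM was 3.64-fold lower than IM (2.98 to 4.47), and CMT was 2.90-fold above CM (2.34 to 3.62). The level in CMT was 1.25-fold lower than in IM (1.06 to 1.49), short of 1.5-fold.

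SULT1C4, a paralogue of SULT1C2, moved little and in the other direction. It was at 539 FPKM in the IM pool, 634 in the CM pool and 364 in the CMT pool, with 1.17-fold more in CM than in IM (1.11 to 1.24) and 1.74-fold less in CMT than in CM (1.62 to 1.87). The difference of CMT from IM, 1.48-fold lower (1.37 to 1.60), lay just short of the 1.5-fold line.

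SULT2A1, the hydroxysteroid sulfotransferase that conjugates dehydroepiandrosterone and bile acids, was the most abundant of the 4 sulfotransferases in every library. Its level was 2611 FPKM in IM, against 3448 in CM and 1507 in CMT. CM was 1.32-fold above IM (1.28 to 1.36), CMT was 2.29-fold lower than CM (2.20 to 2.38) and 1.73-fold lower than IM (1.66 to 1.81).

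The sum over the 4 sulfotransferases was 3363 FPKM in the IM pool, 5882 in the CM pool and 1977 in the CMT pool, a narrower range than that of the P450s. SULT2A1 made up 77.6%, 58.6% and 76.2% of it. SULT1A1 made up 3.09% of the sum in IM, against 30.1% in CM and 0.917% in CMT, and the phenol sulfotransferase was thus a sizeable share of this mRNA in 1 pool, that of the castrated pigs without testosterone.

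Set against all features compared, 4 of the 7 enzymes (CYP2E1, CYP2A19, CYP1A2 and SULT1A1) were at least 1.5-fold higher in CM than in IM, where 11.1% of the 15613 features were, and 1 (SULT1C2) was lower, where 12.1% were. In CMT versus CM, 6 of the 7 were lower, against 13.5% of all features, and SULT1C2 was higher, against 12.1%. In CMT versus IM, CYP2E1, CYP1A2, SULT1A1 and SULT2A1 were lower, against 10.1% of all features, and CYP2A19 was higher, against 6.67%. The genes were picked with these ratios known, so the shares show how common such differences were and are no evidence about the enzymes as a set. The 3 comparisons share their libraries, which means that a single high or low library enters 2 of them.

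By shape over the 3 libraries, CYP2E1, CYP2A19, CYP1A2 and SULT1A1 were highest in CM by at least 1.5-fold over both others, a shape of 6.87% of all features. CYP2E1, CYP1A2, SULT1A1 and SULT2A1 were lowest in CMT by at least 1.5-fold under both others, which held for 5.44% of features, and SULT1C2 was lowest in CM, which held for 7.12%. Larger differences were rare. A CM level at least 10-fold above IM was found for 14 features or 0.0897%, with SULT1A1 among them, and a CMT level at least 10-fold under both other libraries for 13 features or 0.0833%, with CYP2E1 and CYP1A2 among them. The 10-fold line was set after the values were seen.

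**Figure D2:**
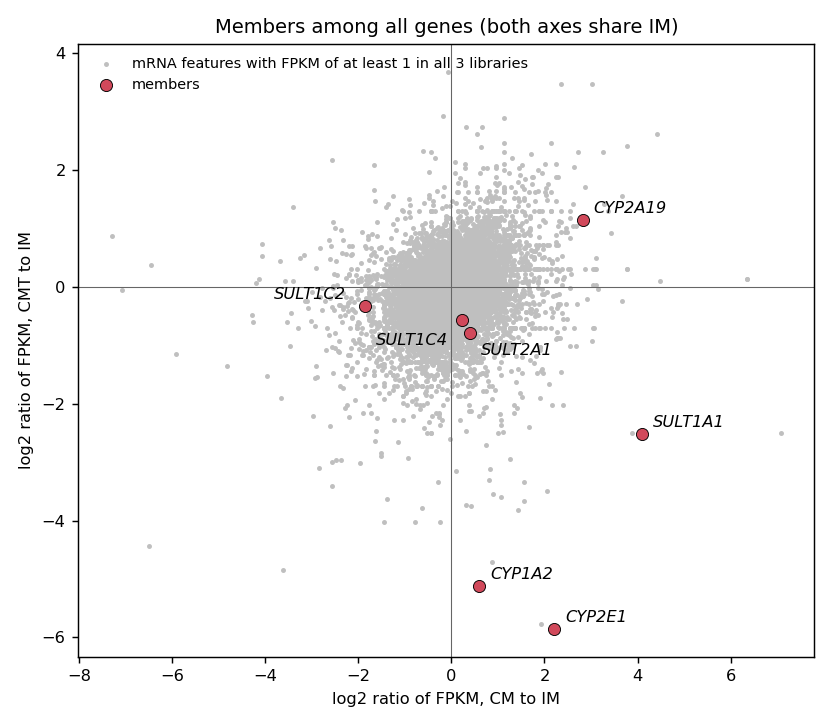
The log2 ratio of CM to IM (horizontal) against the log2 ratio of CMT to IM (vertical) for 15613 mRNA features in grey and the 7 enzymes in red; both axes share the IM library. CYP2E1 lies lowest on the vertical axis at -5.85 and CYP1A2 close to it at -5.12, SULT1A1 lies far right at 4.09, and SULT1C4 and SULT2A1 lie inside the main cloud.

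The choice of scale shifted all ratios of a comparison alike. Scaling to equal column sums or to the recovered reads, called total-based scalings here, set all ratios against other totals, and the median log2 ratio of all features moved from -0.02 to 0.24 and 0.26 for CM versus IM and from 0.01 to -0.23 and -0.23 for CMT versus CM. The 4 scalings moved log2 ratios by at most 0.28. This was less than any ratio of the 7 enzymes that they moved towards 0, so no direction could change. SULT2A1 passed 1.5-fold in CM versus IM with equal column sums and with scaling to the recovered reads, and SULT1C4 passed it in CMT versus IM with upper quartile scaling. The log2 ratio of CYP1A2 in CM versus IM, 0.60 as deposited, was 0.85 and 0.88 under the total-based scalings.

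**Figure D3:**
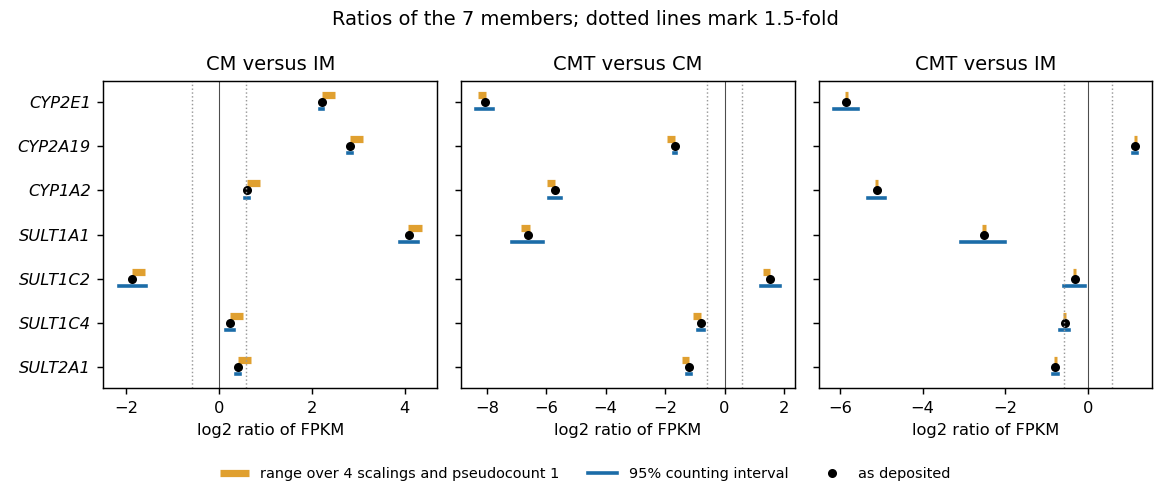
Log2 FPKM ratios of the 7 enzymes in the 3 comparisons, where black points are the deposited values, blue lines 95% counting intervals and orange bars the range over 4 scalings and a pseudocount of 1; dotted lines mark 1.5-fold. Neither the blue nor the orange ranges cross 0 for any gene, while the black points of CYP1A2 in CM versus IM and SULT1C4 in CMT versus IM lie at the dotted line.

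Genes with the most similar course were looked up by the distance in the plane of the log2 ratios CM to IM and CMT to CM, among mRNA features whose level reached 10 FPKM in all libraries. The features near CYP1A2 included the alanine aminotransferase GPT2, at a distance of 0.95 and with 241, 648 and 17.0 FPKM, and CYP1A1, at a distance of 1.09. CYP2E1 and SULT1A1 lay in a thinly filled region and were each other's nearest feature, at a distance of 2.38. SULT1A1 was followed by NQO1, a quinone reductase, at 47.5, 604 and 39.9 FPKM. The neighbours of SULT1C2 included NFIL3, a transcription factor of the circadian and immune systems, at 725, 202 and 635 FPKM, and RDH10, a retinol dehydrogenase, at 393, 122 and 344 FPKM. SULT1C4 and SULT2A1, in the dense part of the plane, lay at distances of 0.0084 and 0.023 from RFK and DCTPP1.

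For CYP2A19 the nearest feature was LOC100738359, at a distance of 0.08, which the study's gene descriptions pair with human CYP2A6. Its level was 955 FPKM in the IM pool, 6976 in the CM pool and 2089 in the CMT pool, close to that of CYP2A19 in each library. The sequences of these genes were not compared. Closely related P450 genes can share reads, so the values of CYP2A19 may hold reads of LOC100738359 and the reverse, which was not tested. The difference between CM and the other libraries was of like size for both.

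Gene order in the RefSeq annotation of Sscrofa11.1 was used to see whether the differences reached the genes next to the enzymes. SULT1C2 and SULT1C4 had no single match by name there, so their neighbours are not given. CYP1A2 lies beside CYP1A1, the inducible hydrocarbon-oxidising P450, which was at 536 FPKM in IM, against 1591 in CM and 42.5 in CMT. On the other side lies the kinase gene CSK, at 147, 193 and 131 FPKM. SULT1A1 was placed through its RefSeq entry, which carries the name SULT1A3. The gene beside it, SLX1A, was at 31.6, 47.1 and 34.7 FPKM, and SGF29 on its other side was at 81.9, 143 and 56.2. Directly beside CYP2A19, LOC100737508 was at 0.748, 3.48 and 0.614 FPKM, below the minimum in IM and CMT. The next gene on that side, LOC102165015, was at 298, 308 and 118 FPKM, more than 1.5-fold lower in CMT than in both other libraries. On the other side, LOC100523190 was at 1.34, 1.97 and a listed 0 FPKM, and EGLN2 beyond it was at 248, 228 and 288. SYCE1, beside CYP2E1, was at 8.99, 12.5 and 4.43 FPKM, from 10, 19 and 4 reads. The interval of its CMT to CM ratio, 0.087 to 1.06, included no difference. Beside SULT2A1, BSPH1 was at 13.0, 4.79 and 6.88 FPKM, from 28, 14 and 12 reads, and CRX was listed at 0 in all 3 libraries.

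Other phase I enzymes of xenobiotic metabolism in pig liver did not move as a block. Their summed level on the deposited scale was 300371, 196088 and 228899 FPKM. All features together also summed lowest in CM, at 8.66e+06, 7.25e+06 and 8.60e+06 FPKM, so the order of CM and CMT in the sums of this list depends on the scale. Of 14 such genes compared, 2 passed 1.5-fold upwards and 5 downwards in CM versus IM, with a median log2 ratio of -0.21 (median of all features -0.02), and 5 were higher and 4 lower in CMT than in CM. The median of the list for CM versus IM turned to 0.05 and 0.07 under the total-based scalings. CYP1A1 and FMO5 were low in CMT like CYP1A2, with FMO5, a flavin monooxygenase, at 848, 1487 and 85.9 FPKM. CYP3A46 and CYP2C33 had the shape of SULT1C2, with CYP3A46 at 54596, 13314 and 49896 FPKM and CYP2C33 at 42997, 8849 and 30883. These P450s belong to large families whose members can share reads.

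The P450s of the endoplasmic reticulum, these 3 enzymes among them, take electrons from POR, the P450 oxidoreductase, and some also from cytochrome b5. POR was at 1020 FPKM in the IM pool, 915 in the CM pool and 1046 in the CMT pool, and CYB5A, which encodes cytochrome b5, at 9759, 9013 and 11058. Neither differed by 1.5-fold between any libraries. The 6 genes compared in the electron donor list include PGRMC1 and PGRMC2, haem-binding membrane proteins that are not known as electron donors. PGRMC2, at 246, 148 and 420 FPKM, was the only gene of the list past 1.5-fold. It was lower in CM than in IM and higher in CMT than in CM, and the first of these differences fell short of 1.5-fold under the total-based scalings.

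P450 protein also needs haem. ALAS1, the rate-limiting enzyme of haem synthesis in liver, was at 1522 FPKM in IM, against 442 in CM and 711 in CMT, with its lowest level in the pool where the sum of CYP2E1, CYP2A19 and CYP1A2 was highest. The deposited tables class ALAS1 as a miscellaneous RNA, so it is not in the counts of mRNA features. Of the 11 other haem genes, 2 (BLVRA and BLVRB, the biliverdin reductases) were lower in CM than in IM and none higher, and 4 were higher in CMT than in CM and none lower. BLVRB was at 2155, 1224 and 2692 FPKM, short of 1.5-fold between IM and CM under the total-based scalings, which also left 2 of the 4 higher in CMT than in CM.

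The sulfotransferases draw on PAPS. PAPSS2, which makes PAPS from sulphate and ATP, was at 87.0 FPKM in the IM pool, 131 in the CM pool and 38.1 in the CMT pool, the same order of libraries as SULT1A1 and SULT2A1. PAPSS1 was not analysed here. Among 11 genes of PAPS supply and sulphate handling, 1 passed 1.5-fold upwards and 2 downwards in CM versus IM, and 3 were higher and 2 lower in CMT than in CM. Under the total-based scalings the former counts became 2 and 1, and the latter 1 and 2. The gene counted upwards in CM versus IM as deposited was PAPSS2 at 1.51-fold, and its interval of 1.34 to 1.70 spanned the line. ETHE1, counted downwards there, fell short of 1.5-fold under each of the 4 scalings. CDO1, which starts the oxidation of cysteine towards sulphate, ran the other way from PAPSS2 at 9343, 4791 and 12532 FPKM. The sulphate carrier SLC26A2 was at 8.06, 9.20 and 2.20 FPKM, from 9, 14 and 2 reads. It is counted as lower in CMT than in CM, but the interval of that ratio, 0.026 to 1.04, included no difference.

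Sulphatases remove what sulfotransferases add. STS, the steroid sulphatase, was at 11.1 FPKM in IM, against 20.3 in CM and 6.21 in CMT. It was the only one of 6 sulphatase genes past 1.5-fold in CM versus IM, and STS and ARSB were the 2 past it in CMT versus CM, both lower in CMT. Under the total-based scalings ARSB passed 1.5-fold in CM versus IM as well.

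Among further sulfotransferases, SULT2B1, which sulphates cholesterol, was at 3.26 FPKM in the IM pool, 4.18 in the CM pool and 5.01 in the CMT pool, and SULT4A1 was listed at 0 in all 3. A search of the study's gene descriptions, made after values were seen, added a pair of features without a symbol. LOC100623656, paired there with human SULT1C3, was at 391 FPKM in IM, against 4.36 in CM and 18.1 in CMT, from 1249, 19 and 47 reads. It shared the low CM level of SULT1C2 with a wider span, since CM was 89.6-fold lower than IM (57.1 to 149), rank 3 from the lowest of all features compared, while CMT was 4.15-fold above CM (2.39 to 7.48) and 21.6-fold lower than IM (16.1 to 29.6). LOC100624541, paired with human SULT1B1, was at 30.7, 10.4 and 12.0 FPKM from 63, 29 and 20 reads, 2.96-fold lower in CM than in IM (1.88 to 4.77).

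**Figure D4:**
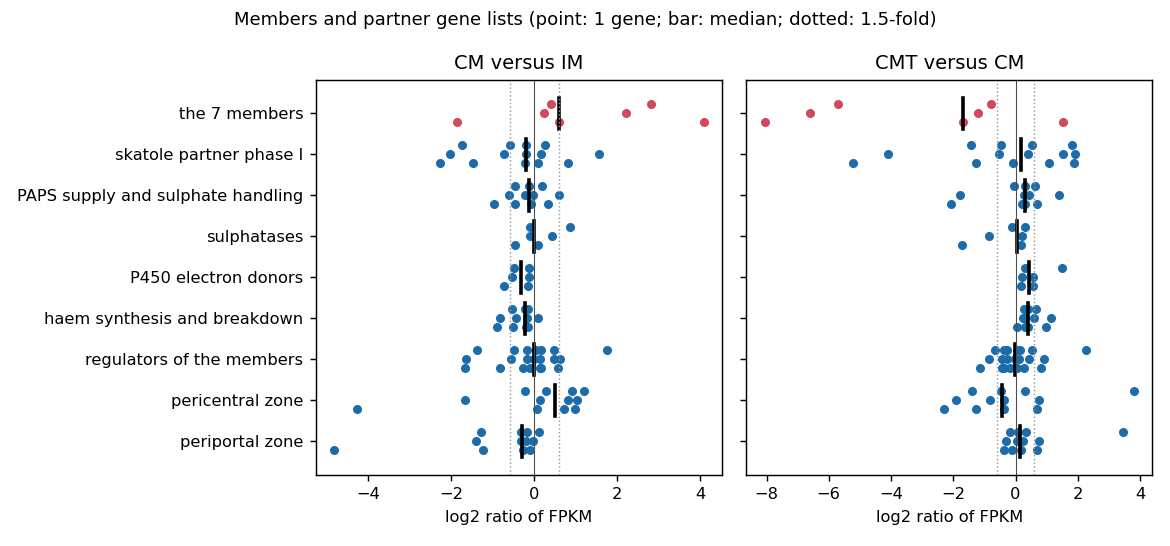
Log2 FPKM ratios of the 7 enzymes (red) and of 8 partner lists (blue), for CM versus IM on the left and CMT versus CM on the right, with 1 point per gene, a black bar at the median and dotted lines at 1.5-fold. The genes of the electron donor and haem lists lie near 0 or below it in CM versus IM, and no list reaches the -8.06 of CYP2E1 in CMT versus CM.

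Of 21 transcription factors known to act on such enzymes, 15 were within 1.5-fold between CM and IM on the deposited scale, and 76.8% of all features were. HNF4A, a general hepatocyte factor, was at 896 FPKM in the IM pool, 830 in the CM pool and 1114 in the CMT pool. The nuclear receptors NR1I2 (PXR) and NR1I3 (CAR) were at 443, 491 and 378 and at 140, 196 and 145 FPKM. None of these 3 differed by 1.5-fold between any pair of libraries. Under the total-based scalings NR1I2 and NR1I3 were more than 1.5-fold lower in CMT than in CM, and NR1I3 was also higher in CM than in IM.

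AHR, the aryl hydrocarbon receptor that induces CYP1A1 and CYP1A2, was at 168 FPKM in IM, against 53.6 in CM and 255 in CMT. It was thus lowest where both CYP1A mRNAs were highest, and highest where they were lowest. Of 4 AHR target genes compared, CYP1A1 and NQO1 were higher in CM than in IM and lower in CMT than in CM, UGT1A6 was at 278, 155 and 278 FPKM, and TIPARP stayed within 1.5-fold. Over 21 regulators in all, 2 passed 1.5-fold upwards and 4 downwards in CM versus IM, with a median log2 ratio of 0.00, and 5 and 3 did so under the total-based scalings. FOXA3, a forkhead factor of hepatocytes, had the highest CM to IM ratio among them, at 59.6, 201 and 91.2 FPKM, while its relative FOXA2 was at 174, 54.6 and 102.

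CYP2E1 and CYP1A2 are known as genes of the pericentral hepatocytes, the cells around the central vein. GLUL, glutamine synthetase of the innermost pericentral layer, was at 1789 FPKM in the IM pool, 3677 in the CM pool and 974 in the CMT pool, the same order of libraries as CYP2E1 over a much narrower range. Of 12 pericentral genes compared, 6 passed 1.5-fold upwards and 2 downwards in CM versus IM, with a median log2 ratio of 0.50, and 3 were higher and 5 lower in CMT than in CM. NKD1 and AXIN2, targets of Wnt signalling, were at 11.2, 25.6 and 5.16 and at 9.52, 16.7 and 6.31 FPKM, and the Wnt target SP5 was at 2.08, 8.39 and a listed 0. The list was not uniform, since the glutamate carrier SLC1A2 was at 123, 6.33 and 88.5 FPKM and OAT, ornithine aminotransferase, at 1300.2, 405 and 688.

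Of 12 periportal genes, 4 were lower in CM than in IM and none higher, with a median log2 ratio of -0.29. The widest difference was in SDS, serine dehydratase, at 12000.3 FPKM in IM, against 424 in CM and 4697 in CMT, followed by HAL, TAT and PCK1. In CMT versus CM, 3 periportal genes were higher and none lower, and under the total-based scalings 1 was higher and 1 lower. The pericentral counts for this comparison, 3 higher and 5 lower, became 1 and 8. In CMT versus IM the counts were the same for both zones on the deposited scale, with none of 12 genes higher and 4 lower, and the medians were -0.26 for the pericentral and -0.27 for the periportal list. GLUL was 1.84-fold lower in CMT than in IM, and AXIN2 lay at the 1.5-fold line.

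**Figure D5:**
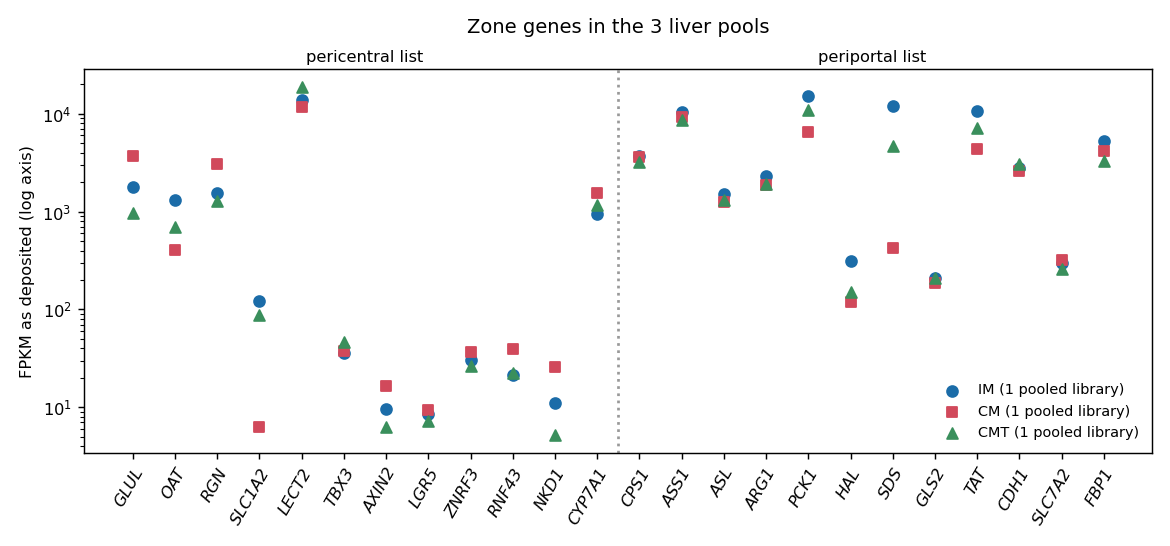
FPKM on a log axis of 12 pericentral genes (left of the dotted line) and 12 periportal genes (right), with 1 point for each pooled library. GLUL, RGN, AXIN2, RNF43 and NKD1 have their highest point in CM, SLC1A2, OAT and SDS have their lowest there, and SP5, listed at 0 in CMT, is not drawn.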

How the data were processed

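Total liver RNA of the pigs of a group was pooled, libraries were made with an Illumina TruSeq kit, and paired-end reads were mapped by the authors to the pig genome (Sscrofa10.2) with TopHat. The program that counted the reads and the gene models it used are not given in the sources used here. Names of human counterparts for features without a symbol came from the gene descriptions in the study's supplementary tables. The deposited tables, 1 for each pool, hold FPKM values of 34579 features. All 3 libraries were used, and no column held another sample.

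Within most genes the deposited FPKM values are whole multiples of a step, from which reads were recovered (tolerance of 0.0001) for 23093 features with a length up to 10000 bases, 95.1% of the 24277 features above 0. Divisors were settled on the RefSeq lengths of mitochondrial protein genes. Of 13 such genes, 9 recovered lengths lay within 2 bases of the annotated one, 2 were 0.5 times and 2 were 3 times as long, so the reads of a gene may be off by a whole factor, and both mates of a pair may have been counted. The deposited levels were 12.8, 10.6 and 12.5 times the reads per kilobase and 1000000 recovered reads in IM, CM and CMT, so they are not on the scale of FPKM from other work. The smallest level that 3 reads could show on 1 kb was 1.20, 0.877 and 1.47 FPKM.

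Ratios were taken between FPKM values as deposited, without a pseudocount or rescaling. With 1 library per group no p-value was computed. The members and gene lists were chosen with earlier results of these data known. Named genes were the 7 enzymes, the 3 nearest features of each, POR, CYB5A, PAPSS2, ALAS1, HNF4A, AHR, NR1I3, NR1I2 and GLUL whatever their change, and from each list up to 4 genes past 1.5-fold with the largest log2 ratio. A few more list genes, the neighbours in RefSeq order and 3 features without a symbol were added after values were seen. Of 161 list genes, 144 were found, 134 by symbol and 10 through RefSeq synonyms or IDs. PAPSS1, SULT1B1 and SULT1E1 were not found by symbol and were not analysed here under those names, and a few genes named by this rule are left out of the text. Alternatives were other scalings, FPKM minimums, a 2-fold threshold, a pseudocount of 1 and, added after seeing the data, intervals on halved reads and the scalings of the gene lists. The recovery and the ratios were run on simulated data that took the recovered lengths and the divisors as true. That run therefore cannot check the choice of divisors or whether the recovered lengths are right. The tools were Python 3.11.15, numpy 2.4.6, pandas 2.3.3, scipy 1.17.1 and matplotlib 3.10.9.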

Additional observations from a re-analysis of the deposited data

How the results depend on the processing

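No ratio of the 7 enzymes changed direction under the 4 scalings, whose shifts were smaller than the ratios they opposed. A pseudocount of 1 added to both levels cannot change a direction. The number of enzymes past 1.5-fold was 5 in CM versus IM, 7 in CMT versus CM and 5 in CMT versus IM. With a threshold of 2-fold, CYP1A2, SULT1C4 and SULT2A1 in turn fell short. The share of all features past 2-fold was not computed. With equal column sums or scaling to the recovered reads, CM versus IM had 6 enzymes past 1.5-fold. In that comparison 3239 or 3432 of all features were then higher and 1073 or 1003 lower, against 1737 and 1884 as deposited. For CMT versus CM the same scalings gave 1051 or 1065 higher and 3572 or 3497 lower, against 1896 and 2110. Which scale is right was not tested. No paired analysis was possible because each group is 1 library, and for the same reason no library could be left out of a comparison. The lowest levels rest on few reads, 34 for SULT1A1 in CMT among the enzymes.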

Other observations

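Among the 13 features at least 10-fold lower in CMT than in both other libraries, looked up after the values were seen, were CYP2E1, CYP1A2, CYP1A1, ACAA2 (fatty acid oxidation), GPT2 (alanine transamination), CA3 (a carbonic anhydrase), AQP9 (a glycerol channel), MIOX (inositol oxidation), GPR81 (a lactate receptor), EXTL1, CDHR5 and PRAP1. ACAA2 was at 1004, 2982 and 99.4 FPKM in IM, CM and CMT, from 121 reads in CMT, and AQP9 at 427, 795 and 36.6 FPKM. CA3 was at 444, 1690 and 8.09 FPKM, 54.8-fold lower in CMT than in IM, but it had 7 reads in CMT and an interval of 26.4 to 137. GPR81 and PRAP1 had 4 and 2 reads in CMT, and their intervals for CMT against IM, 6.11 to 61.1 and 3.43 to 115-fold lower, spanned 10-fold.

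Of the 14 features at least 10-fold higher in CM than in IM, HSD17B2, which oxidises testosterone and oestradiol to their less active 17-keto forms, had the highest ratio, at 41.5, 5614 and 7.30 FPKM, from 42, 7738 and 6 reads. PBK, a kinase of dividing cells, was at 2.54, 32.4 and 7.49 FPKM from 10, 174 and 24 reads, and the lower bound of its CM to IM ratio was 6.78. LOC100152729 and LOC100621379 had nearly equal values in every library, 7.03 in IM and 573 in CM for both.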
